A study of Rattus norvegicus with 146 samples.

Results

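The spleen profile rests on 29 samples, set against 117 samples of the other 4 organs of a rat study and chosen by the organ code in the sample titles. RNA of 92 genes was measured by quantitative PCR in spleen, lung, liver, kidney and adrenal gland of female rats of 2 strains, the Spontaneously Hypertensive rat (SHR) and its normotensive control, the Wistar-Kyoto rat (WKY), at 8, 10, 12, 16 and 24 weeks of age. The rats carried no transgene and had no treatment named in the labels. The spleen samples came from 29 rats, 15 SHR and 14 WKY, with 3 rats in each strain and age except 2 WKY rats at 12 weeks. The comparison organs had 30 samples each from adrenal gland, kidney and lung and 27 from liver, mostly of the same rats. The Ct table writes 23 weeks in its headers for the rats labelled 24 weeks, and the label was used. A pair of adrenal columns of WKY rats at 12 weeks share 1 header and were used as samples of that group. The question was which of these genes stood highest or lowest in spleen, and how the spleen profile varied with strain and age.

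The spleen filters blood and holds B and T lymphocytes in its white pulp, and macrophages, other myeloid cells and red blood cells in its red pulp. Sympathetic nerves reach it, and its immune cells have been studied in experimental hypertension. The panel was built around blood pressure control, inflammation and signalling, so it covers these cells by only a few of their genes.

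A PCR cycle threshold (Ct) is the cycle at which a product becomes detectable, so a lower Ct means more cDNA. The level of a gene in a sample was the median Ct of all genes of that sample minus the Ct of the gene. A level is therefore a log2-like value relative to the median gene of its own sample, and 1 unit is 2-fold if each cycle doubles the product. Levels were compared between organs and rats for the same gene, never between genes. In whole tissue, a cell type that is rarer and a cell type with less RNA per cell cannot be told apart.

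The median Ct of a spleen sample had a median of 9.88 cycles, against 8.68 in lung, 10.2 in kidney, 10.5 in adrenal gland and 10.8 in liver. It lay between 9.23 and 10.8 in 27 spleens, but at 12.1 in the SHR spleen of replicate 3 at 10 weeks and at 13.3 in the SHR spleen of replicate 2 at 24 weeks. These 2 late samples lacked a value for 6 and 25 genes, against 1 to 4 in the other 27. The correlation of levels with the median spleen profile was 0.94 and 0.53 in the 2 late samples and 0.96 to 0.99 in the others. All 29 spleens correlated better with the spleen profile than with that of any other organ. Counts, calls and differences are over all 29 spleens unless stated otherwise. Several that these 2 samples changed are also given without them. One further SHR spleen, replicate 1 at 16 weeks, was labelled with both strains, WKY in the strain entry and SHR elsewhere in its record. Its Ephx2 level of -8.78 lay in the range of the other SHR spleens (-13.0 to -8.11) and outside that of the WKY spleens (-5.39 to -4.02), and it was kept as SHR. Ephx2 is also the largest strain difference given below for the same spleens, so this check is not independent of it. Outside the spleen, 3 adrenal glands and 1 lung had a median Ct over 2 cycles from that of their organ, and were kept. They were adrenal WKY replicate 3 of 24 weeks (6.08) and of 8 weeks (7.57), adrenal SHR replicate 1 of 10 weeks (12.8) and lung SHR replicate 3 of 16 weeks (12.1). The 2 WKY adrenal glands had 17 and 9 genes at the lowest Ct of the table, 2.5 cycles.

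Of 89 genes tested, 13 were higher in spleen than in each of the other 4 organs at an adjusted p of 0.05 (14.6% of the genes tested), and 14 were lower than in each (15.7%). The margin over the next highest organ was at least 1 log2 unit for 9 genes (10.1%). Among them were Il6, Cd86, Tgfb1, Il1b, Ebf1, Casp8, Ccl5 and Rgs1. These encode cytokines, a chemokine, a costimulator, a B-lineage transcription factor, a regulator of chemokine receptor signalling and a caspase. Of the 13, 7 kept their call under every scaling and every other alternative in which they could be tested, among them Il6, Cd86, Tgfb1, Il1b, Ebf1 and Casp8.

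Il6 encodes interleukin 6, a cytokine of the acute phase response and of B cell maturation. Its spleen levels ran from -1.98 to 1.42 with a median of 0.34 (28 samples), against -7.61 to -4.48 with a median of -6.32 in lung (30 samples), the next highest organ. The lowest spleen value belonged to the late SHR sample of 10 weeks, and even this one lay above each value of the other 4 organs. The spleen stood 6.51 ± 0.22 log2 units (SE) above lung, or 90.9-fold (limma, adjusted p = 2.3e-57). In median Ct this was cycle 9.44 in spleen and cycle 15.1 in lung. In liver Il6 had a value in 11 of 27 samples.

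Cd86 encodes a costimulatory protein by which dendritic cells, macrophages and activated B cells signal to T cells. It ran from -2.32 to -0.32 (median -0.74, 28 samples) in spleen and from -5.98 to -3.75 (median -4.36, 30 samples) in lung. The groups did not overlap, and no sample of another organ reached the lowest spleen value. The margin over lung was 3.60 ± 0.16 log2 units, or 12.1-fold (limma, adjusted p = 1.2e-47).

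The stretches before the starts of these genes are shown because Il6 and Cd86 had the 2 largest margins and carried the same short pattern. Each is the 250 bases before the annotated start (RefSeq, GRCr8), 5′ to 3′ on the strand of the gene, with matches to GGG, any 2 bases and TTTCC, or to the reverse complement (GGAAA, any 2 bases and CCC), in capitals. The pattern resembles sites of the NF-κB family of transcription factors.
Il6 (chr4:5894576-5894825, minus strand): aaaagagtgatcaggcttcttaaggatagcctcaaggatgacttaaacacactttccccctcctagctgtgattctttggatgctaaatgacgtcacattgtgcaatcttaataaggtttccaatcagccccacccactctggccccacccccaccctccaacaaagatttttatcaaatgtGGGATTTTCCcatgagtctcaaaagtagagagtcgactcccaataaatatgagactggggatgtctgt
Cd86 (chr11:77669031-77669280, plus strand): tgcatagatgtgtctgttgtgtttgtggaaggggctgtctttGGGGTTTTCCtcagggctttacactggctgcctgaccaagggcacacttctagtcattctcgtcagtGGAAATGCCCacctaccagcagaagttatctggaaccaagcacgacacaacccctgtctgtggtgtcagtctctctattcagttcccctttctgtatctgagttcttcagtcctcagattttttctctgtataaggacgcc
Il6 held 1 match and Cd86 held 2. Of the 66 tested panel genes in the promoter table only these 2 held a match, as did 1.28% of all 27457 promoters of this length. The table held 9 of the 13 genes highest in spleen. Of those 9, GAGGAA or its reverse complement, a core bound by the myeloid and B cell factor PU.1, stood in 4 (Cd86, Rgs1, Tnf and Tlr4), against 23.2% of all promoters and 22 of the 66 panel genes. In Cd86 it overlapped the first of the matches in capitals. TGANTCA, the pattern of AP-1 factors and its own reverse complement, stood in 0 of the 9, in 2 of the 66 and in 6.36% of all promoters. A match describes these letters and is not evidence of binding.

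Tgfb1 encodes transforming growth factor beta 1, a cytokine that restrains immune cells and drives matrix production. In spleen it ran from 0.93 to 3.05 (median 2.55, 28 samples) and in lung from -1.13 to 1.18 (median 0.45, 30 samples). The spleen of lowest level was the late SHR sample of 10 weeks, and the other 27 lay above each sample of the other organs. The margin over lung was 2.10 ± 0.10 log2 units (limma, adjusted p = 8.1e-47).

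Il1b encodes interleukin 1 beta, a cytokine of activated macrophages. Its levels were 0.30 to 2.28 (median 1.51, 29 samples) in spleen and -1.45 to 0.74 (median -0.49, 30 samples) in lung. A single spleen, one of the 2 late samples, overlapped the other organs. The margin over lung was 1.96 ± 0.16 log2 units, or 3.89-fold (limma, adjusted p = 2.0e-24).

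Ebf1 encodes early B cell factor 1, a transcription factor that sets the B cell lineage and also acts in stromal and fat cells. It ran from -4.43 to -1.86 (median -2.40, 28 samples) in spleen and from -5.28 to -3.62 (median -4.31, 30 samples) in kidney, the next organ. In 25 of the 28 spleens it was above each sample of the other organs, and 27 were above each kidney. The margin over kidney was 1.88 ± 0.17 log2 units (limma, adjusted p = 1.3e-20). The liver stood lowest, with a value in 15 of 27 samples and a median of -8.27.

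Ccl5 encodes a chemokine released by T cells, natural killer cells and macrophages. It ran from -2.24 to 3.60 (median 3.06, 29 samples) in spleen and from -0.55 to 2.08 (median 1.55, 30 samples) in lung. Here 28 spleens were above all other samples, and the exception was the late SHR sample of 24 weeks. The Ccl5 margin over lung was 1.33 ± 0.19 log2 units, or 2.52-fold (limma, adjusted p = 3.5e-10). It fell to 0.06 with the mean of Gapdh, Actb and Rpl13a as the baseline and to 0.03 on the Ct as it is, and neither passed the test, so its rank above lung depended on the scaling. The same scalings narrowed other margins over lung, to 0.77 for Tgfb1, 0.65 for Il1b and 0.56 for Casp8 at the least, without ending their calls.

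Casp8 encodes caspase 8, which starts apoptosis below death receptors and restrains necroptosis. It ran from 0.83 to 2.32 (median 1.56, 29 samples) in spleen and from -1.26 to 1.49 (median -0.38, 30 samples) in lung. The groups overlapped, with 16 of 29 spleens above each lung sample, and a lung sample at 1.49 set that limit. The margin over lung was 1.87 ± 0.16 log2 units, or 3.65-fold (limma, adjusted p = 7.0e-23). Rgs1, which dampens chemokine receptor signalling in lymphocytes, ran from -2.45 to -0.46 (median -1.43, 28 samples) in spleen and from -5.48 to -1.39 (median -2.48, 30 samples) in lung. It was above each lung sample in 13 of 28 spleens, and its margin of 1.14 ± 0.22 log2 units (limma, adjusted p = 9.1e-07) became -0.19 with the 3 reference genes as the baseline.

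**Figure D1:**
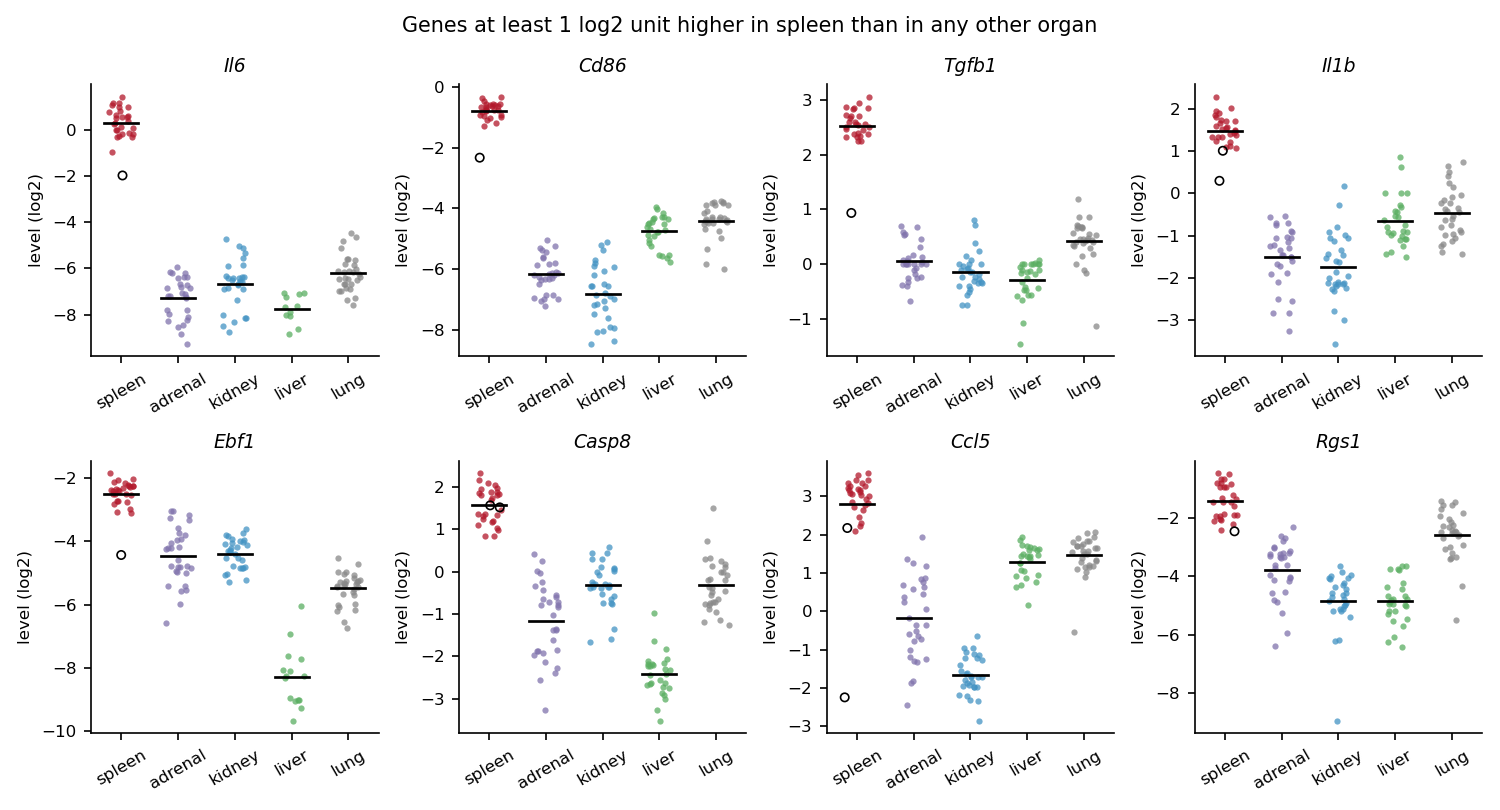
Level of 8 genes with a spleen margin of at least 1 log2 unit, one panel per gene, with the level (sample median Ct minus gene Ct, log2) on the y axis and the 5 organs on the x axis. Each point is a sample, horizontal lines are organ means and open circles are the 2 late SHR spleens; Il6 and Cd86 show no overlap between spleen and the other organs.

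The other 4 genes called highest had small margins. Tnf, encoding tumour necrosis factor, stood 0.51 ± 0.21 log2 units above lung (limma, adjusted p = 0.021), Psap, a precursor of lysosomal saposins, 0.42 ± 0.18 above adrenal gland (0.023), Sirt1, a deacetylase, 0.32 ± 0.12 above kidney (0.011) and Tlr4, the receptor for bacterial lipopolysaccharide, 0.19 ± 0.09 above lung (0.041). Their groups overlapped widely: 0 of 29 Tnf values, 0 of 29 Psap values, 5 of 28 Sirt1 values and 3 of 29 Tlr4 values in spleen were above each sample of the next organ. Each of these 4 margins turned negative under at least 1 other scaling. For Tlr4 this was -1.08 with the reference gene baseline, below lung beyond the spread (limma, adjusted p = 4.0e-12), so the order of spleen and lung in Tlr4 was not settled, and its call was also lost when any 1 of 8 single spleens was left out. Without the 2 late spleens all 13 kept their call and Myd88, an adaptor of Toll-like receptors, joined them. Psap was measured late in spleen, at a median Ct of 16.8 without those 2 samples.

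The spleen was lowest by at least 1 log2 unit for 8 genes (8.99% of those tested). Hgd, encoding homogentisate dioxygenase of tyrosine breakdown, a liver and kidney enzyme, ran from -10.7 to -3.46 (median -7.01, 28 samples) in spleen and from -5.27 to -2.25 (median -3.70, 30 samples) in lung. In 22 of 28 spleens it was below each sample of the other organs, and the spleen stood 3.05 log2 units below lung (-3.05 ± 0.22, limma, adjusted p = 1.1e-27). Its spread within the spleen was wide, with an SD of 1.59.

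Apln, encoding the vasodilator peptide apelin, ran from -8.55 to -5.09 (median -6.30, 29 samples) in spleen and from -8.42 to -3.20 (median -4.16, 27 samples) in liver. The ranges overlapped, and 2 of 29 spleens were below each liver sample. The difference was -2.02 ± 0.21 log2 units from liver (limma, adjusted p = 3.4e-17) and -7.30 ± 0.20 from lung, where Apln was highest. Nox4, an NADPH oxidase abundant in kidney, differed by -1.41 ± 0.26 from liver, with medians of -6.76 in spleen and 4.13 in kidney, and was missing in the 2 late spleens. Zbtb16, a transcription factor of innate-like lymphocytes and of glucocorticoid response, differed by -1.97 ± 0.28 from kidney.

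The other genes lowest by at least 1 unit were Ptgr1, a prostaglandin reductase (-1.32 ± 0.10 from lung), Ctsd, a lysosomal protease (-1.25 ± 0.20 from lung), Spp1, encoding osteopontin (-1.23 ± 0.24 from lung), and Jun, a subunit of AP-1 (-1.14 ± 0.11 from liver). Without the 2 late spleens Ctsd was still called lowest, but at -0.92 from lung, short of 1 unit. Jun was -0.29 to 1.16 in spleen (median 0.31, 29 samples) and 0.00 to 2.46 in liver (median 1.66, 27 samples). Ptgr1 was -4.02 to -2.34 in spleen (median -3.02, 28 samples) and -2.98 to -1.32 in lung (median -1.73, 30 samples), and 14 of 28 spleens were below each lung. Smaller margins were found for the natriuretic peptide receptor Npr1 (-0.95 ± 0.14 from liver), the arginase Arg1 (-0.90 ± 0.19 from adrenal gland), the angiotensin receptor Agtr1a (-0.60 ± 0.12 from lung), the integrin Itga5 (-0.58 ± 0.15 from kidney, and -0.35 ± 0.11 without the 2 late spleens), the receptor Bmpr2 (-0.42 ± 0.09 from liver) and the immunophilin Fkbp1a (-0.36 ± 0.10 from lung). All 14 had an adjusted p of at most 0.00047 against the next organ (limma). Of the 14, 8 kept their call under every alternative: Hgd, Apln, Zbtb16, Nox4, Ptgr1, Ctsd, Jun and Agtr1a. No gene of the 14 was free of overlap with the other organs.

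**Figure D2:**
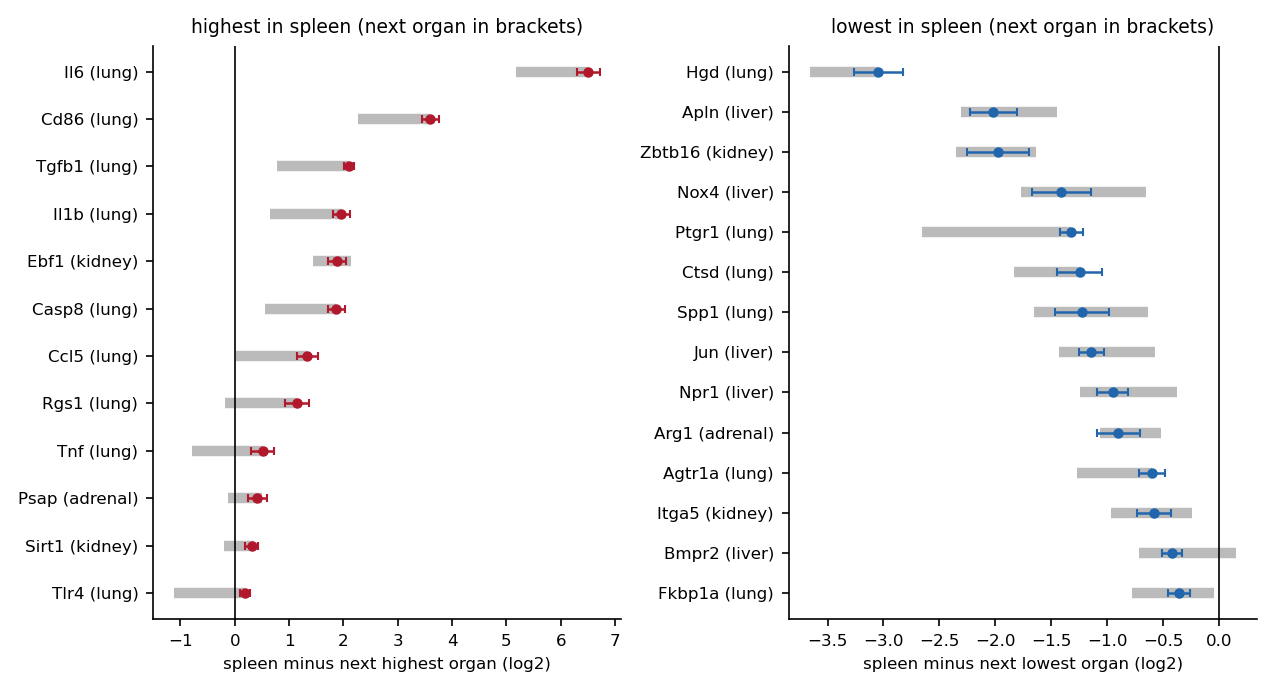
Difference between spleen and the next organ (log2, x axis) for 12 genes highest and 14 genes lowest in spleen, with the next organ in brackets. Points are fitted differences with SE bars, and grey bars span the 5 scalings; the grey bars of Rgs1, Tnf, Psap, Sirt1 and Tlr4 on the left and of Bmpr2 on the right cross 0.

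Taken organ by organ, the spleen was higher than adrenal gland for 32 genes and lower for 47 (36.0% and 52.8% of those tested). Against kidney the counts were 25 and 46 (28.1% and 51.7%), against liver 45 and 37 (50.6% and 41.6%) and against lung 43 and 27 (48.3% and 30.3%). The split against lung rested on the scaling. With the 3 reference genes as the baseline, the median gene moved by -1.27 log2 units relative to lung, and on the Ct as it is by -1.31. Actb sat at the lowest Ct of the table (2.5 cycles) in 22 of 29 spleens and 27 of 30 lungs, so its level there is only a lower bound. Gapdh and Rpl13a had no value at that Ct in either organ. Their mean levels were 5.62 and 5.73 in spleen and 4.40 and 4.21 in lung. Their median Ct was 4.26 and 4.15 in spleen and 4.33 and 4.43 in lung.

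The panel's 8 cytokines and chemokines stood high in spleen as a group, with a median difference of 2.54 log2 units from the mean of the other organs, against -0.14 over all 89 genes. Of them, 5 were highest in spleen (Il6, Tgfb1, Il1b, Ccl5 and Tnf) and none lowest. Over all genes tested 14.6% were highest and 15.7% lowest, and the counts of the groups below have the same shares beside them. All 8 were higher than in lung, 7 higher than in adrenal gland and in kidney, and 5 higher than in liver. Over all genes tested the shares higher were 48.3%, 36.0%, 28.1% and 50.6%, so the count against liver is near its share. Against lung the count rested on the scaling: on the Ct as it is, Ccl5 fell to 0.03 and Tnf to -0.80. Il10, an anti-inflammatory cytokine, ranked first in spleen but differed from liver by 0.58 ± 0.40 (limma, adjusted p = 0.16). Ilrn, printed as the table writes it, differed from liver by -0.06 ± 0.13 (limma, adjusted p = 0.66; 0.997 without the 2 late spleens). Mif, a cytokine that most cells make, was the exception, lower than in adrenal gland, kidney and liver. Its difference was largest from kidney (-2.22 ± 0.09 log2 units) and was -1.80 ± 0.09 from liver. Mif was higher than in lung by 1.16 ± 0.09. This is less than the shift of the median gene relative to lung with the reference genes (-1.27) or on the Ct as it is (-1.31).

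Among leukocyte receptors, Ccr1, a chemokine receptor of monocytes and neutrophils, differed from lung by -0.16 ± 0.15 (limma, adjusted p = 0.29) and was higher than in kidney by 2.17 ± 0.15 and in liver by 2.41 ± 0.15. The fatty acid transporter Cd36 was lower than in liver by 2.53 log2 units (-2.53 ± 0.39) and did not pass the test against adrenal gland (0.21 ± 0.38, limma, adjusted p = 0.62, and 0.55 ± 0.34 without the 2 late spleens). The leukotriene receptor Ltb4r differed from lung by -0.39 ± 0.29 (limma, adjusted p = 0.21). The 3 genes of lymphocyte transcription and signalling, Ebf1, Rgs1 and Bcl6, had a median of 2.59. Bcl6, a repressor of germinal centre B cells, was higher than in liver by 2.77 ± 0.25 and differed from kidney by 0.02 ± 0.24 (limma, adjusted p = 0.95), or by 0.30 ± 0.20 without the 2 late spleens (limma, adjusted p = 0.14).

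The 7 innate sensing and NF-κB genes were split, with a median of -0.12. Casp8 and Tlr4 were called highest, while Tlr3, a receptor for double-stranded RNA, Stat3, a transcription factor below Il6, and Hmgb1, a nuclear protein and alarmin, were lower than in adrenal gland, kidney and liver. For Stat3 the differences were -0.75 ± 0.20, -0.77 ± 0.20 and -1.12 ± 0.21, and without the 2 late spleens -0.39 ± 0.09, -0.42 ± 0.09 and -0.77 ± 0.09, all still past the test. Of the 5 genes of apoptosis and cell cycle, only Casp8 was called. E2f1, a transcription factor of S phase entry, ranked first but differed from lung by 0.35 ± 0.17 (limma, adjusted p = 0.055).

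Genes of angiotensin signalling were described singly, with Agtr1a among the lowest in spleen as given above. Agt, encoding angiotensinogen, was 8.04 log2 units below liver (-8.04 ± 0.39). Ace, the converting enzyme, was 4.57 units below lung (-4.57 ± 0.15) and 3.44 ± 0.15 above liver. Agtrap, a protein that binds the angiotensin receptor, was below kidney by 2.70 units (-2.70 ± 0.19). The 9 genes of redox, lipid and xenobiotic metabolism had a median of -1.32, with 1 highest (Sirt1) and 3 lowest (Ptgr1, Arg1 and Nox4). The 5 vasoactive peptide and receptor genes had a median of -0.27, with Apln and Npr1 lowest. None was higher than in adrenal gland, kidney or lung, against 36.0%, 28.1% and 48.3% of all genes tested.

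The remaining groups held few calls. The 9 genes of matrix, adhesion and smooth muscle had a median of 0.31, with Tgfb1 highest and Spp1 and Itga5 lowest. Thbs1, encoding the matrix protein thrombospondin 1, was 4.17 ± 0.21 above liver and 0.87 units below kidney (-0.87 ± 0.21, and -0.57 ± 0.14 without the 2 late spleens). The 5 immediate early and stress genes had a median of -0.59, with Jun lowest. The 3 tested adrenergic receptors had a median of 0.58, the 2 steroid hormone genes of 0.45 and the single angiogenic factor, Plgf, lay at -0.37, with no call in these groups.

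**Figure D3:**
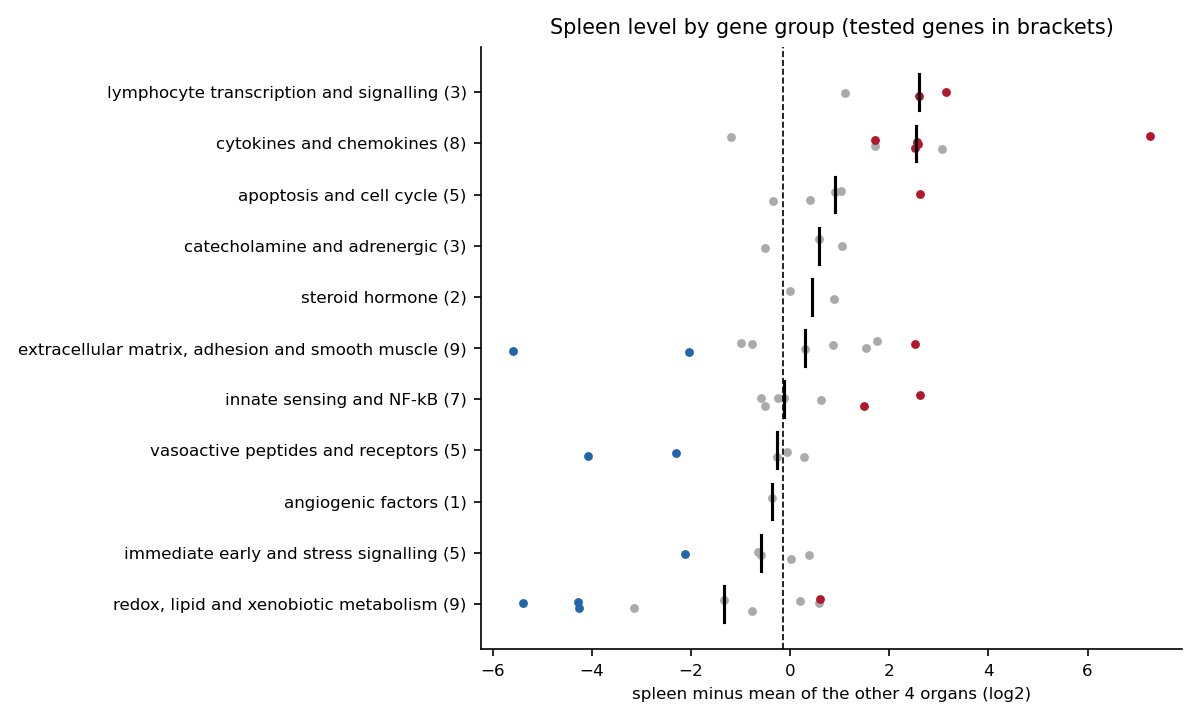
Difference between spleen and the mean of the other 4 organs (log2, x axis) for the tested members of 11 gene groups (rows, number of tested genes in brackets). Red points were called highest and blue points lowest in spleen; black bars are group medians, from 2.59 for lymphocyte genes to -1.32 for genes of redox, lipid and xenobiotic metabolism, and the dashed line is the median of all 89 genes, -0.14.

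The spleen label was set against cell type markers, as far as the panel holds them. Of the 4 lymphocyte markers 3 were highest in spleen (Ebf1, Rgs1 and Ccl5, the last one given with the question), and Bcl6 did not pass against kidney. Of the 5 markers of macrophages and granulocytes 3 were highest (Tlr4, Il1b and Tnf), and Ccr1 and Ltb4r did not pass against lung. Their differences from lung were -0.16 and -0.39, and the reference genes moved the median gene by a further -1.27 relative to lung. The share called highest over all genes tested was 14.6%. Ebf1 and Il1b kept their call under all 5 scalings, while Rgs1, Ccl5, Tlr4 and Tnf lost theirs with the reference gene baseline. None of the 5 markers of red blood cell precursors is on the panel.

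Markers of other organs did not all stand low. The 4 hepatocyte genes had a median difference of -2.72 log2 units from the mean of the other organs, and 1 of them, Arg1, was lowest in spleen. Each was lower than in liver, but Hsd17b13 was higher than in adrenal gland by 0.44 log2 units (limma, adjusted p = 0.037), or by 0.27 without the 2 late spleens (limma, adjusted p = 0.18). Ace, the lung marker, lay at -0.32 from the mean of the other organs, near the median of all genes, and below lung as given above. Th, encoding the tyrosine hydroxylase of catecholamine synthesis, had a value in 28 of 29 spleens at a median level of -5.69, against 5.04 in adrenal gland.

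A gene counted as detected in a sample when the table held a value. Of 35 genes with a missing value in any sample, 3 differed in detection between spleen and the pooled other organs (two-sided Fisher's exact test, adjusted over the 35). Without the 2 late spleens 4 did. This test takes all samples as independent, though the organs came mostly from the same rats. Nts, encoding the peptide neurotensin, had a value in 4 of 29 spleens (13.8%) and 90 of 117 other samples (76.9%, exact test, adjusted p = 1.6e-08). The other organs ranged from 29 of 30 adrenal glands to 14 of 30 kidneys. Th was detected more often, in 96.6% against 65.0% (exact test, adjusted p = 0.0046), where the other organs ranged from 30 of 30 adrenal glands to 4 of 27 livers. A missing value may be a late Ct or a failed reaction, and which of these applied was not tested.

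Within the spleen, 7 of 89 genes differed between SHR and WKY rats averaged over the 5 ages, 4 higher in SHR (4.49%) and 3 lower (3.37%). Ephx2, encoding soluble epoxide hydrolase, which breaks down vasodilator epoxides of arachidonic acid, ran from -13.0 to -8.11 (median -10.0, 14 samples) in SHR and from -5.39 to -4.02 (median -4.72, 14 samples) in WKY. The strains did not overlap, and the difference of -5.35 ± 0.38 log2 units, 40.8-fold (limma, adjusted p = 5.9e-10), had the same sign at all 5 ages. Leaving out any 1 spleen, the one labelled with both strains included, gave -5.52 to -5.15. The low SHR levels are late Ct values, so the size of the difference rests on late values. Ccr1 ran from -0.83 to 1.10 (median -0.33, 15 samples) in SHR and from 0.55 to 1.36 (median 0.77, 14 samples) in WKY. Of the SHR spleens 13 lay below each WKY spleen, and the other 2 were the late sample of 24 weeks and replicate 1 of 12 weeks. The difference was -1.03 ± 0.17 log2 units (limma, adjusted p = 0.00021), negative at all 5 ages.

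Il6 was lower in the SHR spleens, at -1.98 to 1.14 (median 0.00, 14 samples) against -0.32 to 1.42 (median 0.69, 14 samples) in WKY. The strains overlapped, and the difference of -0.71 ± 0.21 (limma, adjusted p = 0.033) was negative at 4 of 5 ages. It was -0.59 without the 2 late samples, where the adjusted p was 0.0072. Its call was lost when any 1 of 13 single spleens was left out, SHR and WKY alike. Spp1 was higher in SHR by 0.96 ± 0.21 log2 units (limma, adjusted p = 0.0066), from -4.10 to -1.66 (median -2.89) in SHR and -4.80 to -2.64 (median -3.78) in WKY, 14 samples each. Rgs1 was higher by 0.69 ± 0.18 (limma, adjusted p = 0.020), Ptgr1 by 0.49 ± 0.12 (0.016) and Casp8 by 0.43 ± 0.12 (0.020). Spp1, Rgs1 and Casp8 were higher in SHR at all 5 ages and Ptgr1 at 4, with overlapping strains in each.

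**Figure D4:**
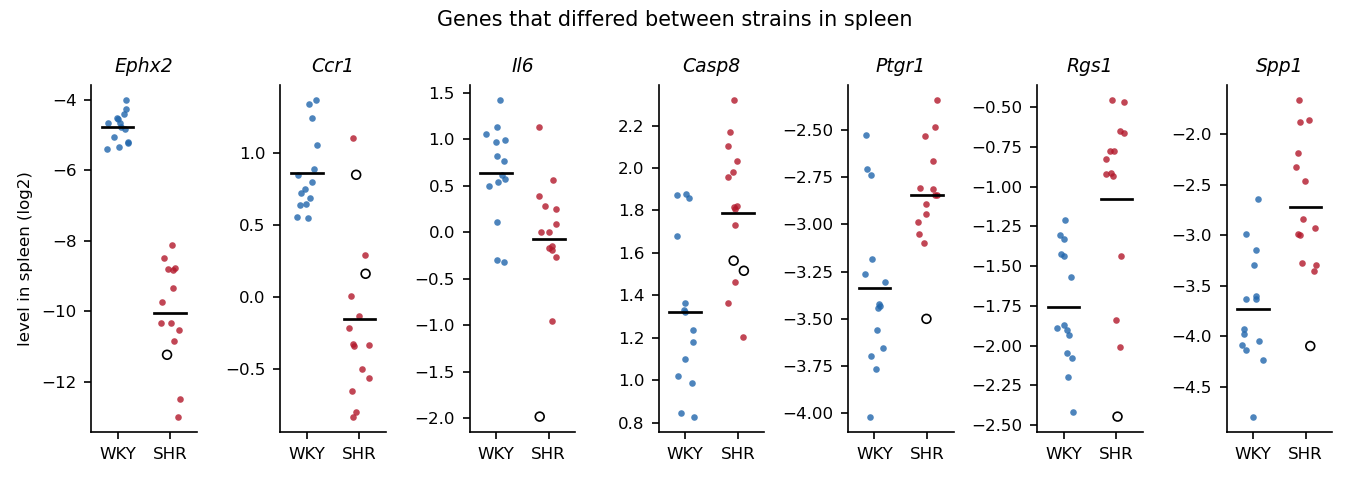
Level (log2, y axis) of the 7 genes that differed between the strains, in the 14 WKY and 15 SHR spleens. Points are samples, lines are means and open circles are the 2 late SHR samples, which have no value for some genes; the strains separate without overlap for Ephx2.

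Both late samples are SHR, and they widened the spread of most genes, the median SD of a level over all tested genes being 0.68 with them and 0.36 without. Without them 46 of 88 genes passed, 38 higher in SHR (43.2%) and 8 lower (9.09%), all 7 genes above included. With 1 spleen left out at a time, the count of 7 became 18 without the late SHR sample of 24 weeks, 3 and 1 without replicates 1 and 3 of the same group, and 4 without WKY replicate 3 of 12 weeks. That split rested on the baseline: 2 were higher and 13 lower with the reference genes, 15 higher and 9 lower with the median deviation, and none higher and 11 lower on the Ct as it is. Over the 27 spleens, 8 genes passed under all 5 scalings, and all 8 were lower in SHR. They were Ephx2, Ccr1, Il6, Cd36, the estrogen receptor Esr1, the monooxygenase Fmo2, Ace and the endothelial lipase Lipg. These were picked out after the values were seen. Over these 27 spleens each of the other 4 scalings shifted the median SHR minus WKY difference by -0.11 to -0.39 log2 units. Passing all 5 scalings was therefore harder for a gene higher in SHR than for a gene lower in SHR. Over the 27 spleens Cd36 ran from 2.66 to 3.72 in SHR and from 3.18 to 4.05 in WKY, a difference of -0.48 ± 0.09 (limma, adjusted p = 0.00049). Esr1 differed by -0.60 ± 0.20 (limma, adjusted p = 0.015). The higher SHR levels of Spp1 and Rgs1 passed in 4 of the 5 scalings over these 27 spleens, those of Casp8 and Ptgr1 in 2. Over all 29 spleens Spp1, Rgs1, Casp8 and Ptgr1 each lost their call with the reference genes and on the Ct as it is. They also lost it with missing values set to the highest Ct.

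Genes did not shift alike in the late samples. In the SHR spleen of replicate 2 at 24 weeks, 9 genes had a Ct within 1.5 cycles of the median of the 27 other spleens (-0.13 to 1.31 cycles): Cyp19a1, Adra1a, Arg2, Uts2, Fosl1, Hsd17b13, Plgf, Ltb4r and Scx. The other 58 genes with a value were 1.92 to 12.19 cycles later, with a median of 5.81. In the SHR spleen of replicate 3 at 10 weeks the same 9 genes lay between -0.999 and 1.07 cycles, and the other 77 between 0.90 and 8.01 later. The mean level of the 9 genes was 0.28 and -0.35 in these 2 samples, the highest of all 29, and ran down to -5.21 among the other 27. The 9 were chosen by their values, so no test applies.

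**Figure D5:**
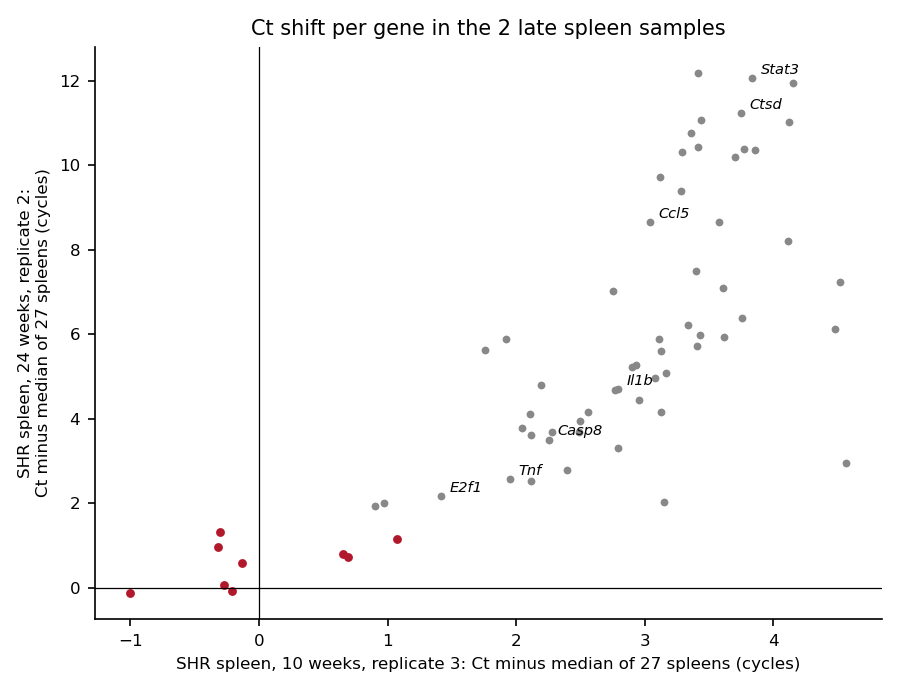
Ct of each gene in the 2 late SHR spleens minus its median in the other 27 (cycles), with replicate 3 of 10 weeks on the x axis and replicate 2 of 24 weeks on the y axis. The 9 genes in red stayed within 1.5 cycles in the later sample while the grey genes came 1.92 to 12.19 cycles later there.

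E2f1, Tnf and Casp8 came 2.16, 2.58 and 3.51 cycles later in the SHR spleen of 24 weeks, less than the median gene. Over the 27 other spleens their levels had median correlations of 0.85, 0.67 and 0.60 with those of the 9 genes, which share the sample median as baseline. The part of this in the spleen margins of Casp8 and Tnf was not tested.

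No gene differed with age over all 29 spleens (0 of 89, limma F test, adjusted p under 0.05; 8 at an unadjusted p under 0.05), and none in its strain difference with age (0 of 89; 2 unadjusted). Without the 2 late samples 13 of 88 genes (14.8%) differed with age, but 0 did under each of the other 4 scalings of the same 27 spleens. The 6 with the largest F were Tnf, Stat3, Il10, Tlr4, Thbs1 and Renbp, each at an adjusted p of 0.032. Tnf had means of -2.62 ± 0.44 (SD, n = 6) at 8 weeks, -3.22 ± 0.26 (n = 5) at 10, -2.28 ± 0.17 (n = 5) at 12, -3.20 ± 0.58 (n = 6) at 16 and -3.31 ± 0.45 (n = 5) at 24 weeks. Stat3, Il10 and Tlr4 also had their highest mean at 12 weeks. Stat3 stood at 2.92 ± 0.25 (SD, n = 5) there and between 2.31 and 2.59 at the other ages.

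Whether the strain difference in the spleen differed from the mean of that in the other organs was tested over 8, 10, 16 and 24 weeks, since no WKY liver of 12 weeks was analysed. Of 87 genes 16 passed (18.4%). Ephx2 was lower in SHR in all 5 organs, by 5.75 log2 units in spleen (-5.75) and by 3.96 to 4.68 in the others (-4.68 to -3.96), a further difference of -1.43 ± 0.31 in spleen (limma, adjusted p = 0.00048). Fmo2 was at -1.02 in spleen and between -0.17 and 0.71 elsewhere, a difference of -1.39 ± 0.28 (limma, adjusted p = 0.00024). Il6 was lower in SHR in spleen (-0.68) and kidney (-0.50) and higher in the other 3 organs (0.57 to 0.70), a difference of -1.03 ± 0.34 (limma, adjusted p = 0.022). Thbs1 differed by -1.04 ± 0.33. The other 4 of the 8 largest among the 16, all higher in SHR spleens, were Adra1a, Scx, Hsd17b13 and Fosl1, which belong to the 9 genes that stayed early in the late samples. In adrenal gland the strain difference was 0.44 for Adra1a, -2.08 for Scx, -0.32 for Hsd17b13 and -1.16 for Fosl1. Adrenal gland held 3 of the samples of aberrant median Ct, and their part in this was not tested apart from the late spleens. The call of Scx was lost without the spleen labelled with both strains, and under other alternatives too.

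The count of 16 moved with single spleens, to 5 without the late SHR sample of 10 weeks, 9 without that of 24 weeks, 27 and 33 without replicates 1 and 3 of the latter group, and 10 without WKY replicate 2 of 16 weeks or replicate 3 of 24 weeks. Without the 2 late spleens 9 of the 87 genes passed, and Ephx2 (-1.22) and Fmo2 (-0.82) were the ones of these 8 among them. The difference of Il6 was then -0.88 (limma, adjusted p = 0.091) and that of Adra1a 0.89 (limma, adjusted p = 0.25). Ccr1, named after its values were seen, differed by -1.05 in spleen, -0.68 in liver, -0.56 in lung, -0.10 in adrenal gland and 0.49 in kidney. The test of that difference gave -0.84 ± 0.19 (limma, adjusted p = 0.00048) with all spleens and -1.004 without the late ones.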

How the data were processed

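RNA was purified with a column kit, reverse transcribed, pre-amplified for 12 cycles and measured by PCR with EvaGreen dye over 30 cycles on 2 arrays of 96 by 96 reactions, per the labels' protocols. The authors deposited a table of Ct values, in cycles, for 92 genes. The sources used here do not state how Ct was called, filtered or floored, or which sample ran on which array. Their normalized table was not used.

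From these Ct values the level was computed per sample as the median Ct minus the gene's Ct. Missing values were left out. limma 3.58.1 in R 4.3.3 fitted organ means over all samples with the rat as a random block (correlation 0.0676), for the 89 genes with at least 10 values in every organ, with Benjamini-Hochberg adjustment over all genes tested and a threshold of 0.05. Nts, Th and Esr2 were not tested. Highest or lowest means past the threshold against all 4 organs in 1 direction. Strain and age were fitted on the spleens alone, and the strain difference between organs over all samples. P-values of the limma fits describe the spread between rats, with 2 or 3 per strain and age. The fits were tested on simulated data. The alternatives tried were 4 other baselines, other blocks, missing and floor values, left-out samples, 1 strain alone and fewer genes.

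Named genes were up to 15 highest and lowest by margin, the listed groups, up to 10 by strain difference, 6 by F of age and 8 by the difference between organs, with exceptions stated. The samples, the 13 gene lists and the 10 marker lists were chosen with earlier results of these data known. Of the marker lists not described with the results, the 2 endothelial genes had a median of -0.54 log2 units and the 3 of smooth muscle and fibroblasts 0.86 from the mean of the other organs. Ccl5 and Casp8, given with the question, had a median of 2.59. Some genes, and the summaries of the lists that hold them, are not reported here, though the counts over all genes include them.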

Additional observations from a re-analysis of the deposited data

Results flagged for a closer look

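The strain difference of the spleen differed from the mean strain difference of the other organs for 16 genes by a test of that difference (limma, over 8, 10, 16 and 24 weeks). Among those 16, the 8 largest differences of differences, in log2 units, were 1.47 for Adra1a, -1.43 for Ephx2, -1.39 for Fmo2, 1.25 for Scx, 1.13 for Hsd17b13, 1.05 for Fosl1, -1.04 for Thbs1 and -1.03 for Il6. Without the 2 late SHR spleens they were 0.89 for Adra1a, -1.22 for Ephx2, -0.82 for Fmo2, 0.75 for Scx, 0.64 for Hsd17b13, 0.58 for Fosl1, -0.28 for Thbs1 and -0.88 for Il6, and those of Ephx2 and Fmo2 passed the test.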

How the results depend on the processing

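The counts of genes that differed in either direction between spleen and each organ stayed within 1.5 times of the main values under all alternatives run. They were 72 to 82 against adrenal gland, 59 to 76 against kidney, 74 to 82 against liver and 61 to 74 against lung, and 11 to 20 genes were lowest. These totals do not show the direction. The median gene stood at 0.33 relative to lung as reported, at -0.94 with the reference genes and at -0.98 on the Ct as it is. Without the replicate block of the rat, 13 genes were highest, 14 lowest, and 79, 71, 82 and 70 differed from adrenal gland, kidney, liver and lung. With a fixed replicate block these were 13, 15, 78, 71, 82 and 71. The difference of strain differences had 14 genes without the block, and a fixed block was not run for it. With 1 spleen left out at a time, 12 to 14 genes were highest, 14 to 15 lowest, 1 to 18 differed by strain, 0 to 1 by age, 0 in strain by age, and 5 to 33 in the strain difference between organs.

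The baseline changed several results, and the cause was not tested. With the reference gene baseline 8 genes were highest, and the margins became -0.19 for Sirt1, -1.08 for Tlr4, -0.76 for Tnf, -0.083 for Psap and -0.19 for Rgs1. The strain difference between organs then had 9 genes. With the median of genes present in every sample the margins were -0.12 for Sirt1, -0.40 for Tlr4 and -0.078 for Tnf, and 18 genes differed by strain. With the median deviation baseline Tlr4 was at -0.10 and 11 genes differed by strain. On the Ct as it is, 8 genes were highest, with -0.058 for Sirt1, -1.11 for Tlr4, -0.80 for Tnf, -0.12 for Psap, -0.051 for Rgs1 and 0.15 for Bmpr2. There 2 genes differed by strain, with -0.049 for Ptgr1 and -0.34 for Casp8, and 3 in the strain difference between organs.

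Missing values set to the highest Ct gave 4 genes by strain and 26 in the strain difference between organs. A fit over all organs gave 12 by strain and 4 by age. Without all samples of aberrant median Ct, 46 genes differed by strain and 13 by age. Without the 2 late spleens alone, chosen after seeing the data, the counts were 46, 13 and, for the strain difference between organs, 9. Over those 27 spleens 15 genes differed by strain with the reference genes, 15 with genes present in every sample, 24 with the median deviation and 11 on the Ct as it is.

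The number of rats limits the precision. Late or missing Ct values limit Nts, Hgd, Psap, Nox4 and Apln in spleen, among others, and Ephx2 in SHR spleens. Without the 2 late samples the median spleen Ct was 16.8 for Psap, 16.7 for Hgd, 16.3 for Nox4 and 16.1 for Apln. Values at the floor of 2.5 cycles limit Actb in spleen and lung. In adrenal gland (58 such values) and kidney (12) they limit other genes too. Among these were Gapdh in 2 adrenal glands and 2 kidneys and Rpl13a in 2 adrenal glands.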

Other observations

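The 9 genes that stayed early in the 2 late spleens also varied together among the other 27. Their mean level was lowest, at -5.21, in WKY replicate 3 of 10 weeks. Each of the 9 had a median correlation of 0.93 to 0.96 with the other 8 over these 27 spleens, all levels sharing the sample median as baseline. Of genes outside the 9, the orexin receptor Hcrtr1 (0.84) and E2f1 (0.85) came nearest. The genes were chosen by their values, and these are descriptions.

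The estrogen receptor Esr2, which was not tested by level because 3 livers had a value, was measured in 26 of 29 spleens (89.7%) and 76 of 117 other samples (65.0%, Fisher's exact test, adjusted p = 0.103). Without the 2 late spleens it was 26 of 27 (Fisher's exact test, adjusted p = 0.0063).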
